A study of Mus musculus with 18 samples.

Results

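Immunoglobulin, B cell and Pigr transcripts were followed in sorted colon epithelial cells of WT and Mbd2-/- mice, with and without colitis. The transcripts were chosen by name, as every probe of the array table with the symbol Igk-C, Igj, Igh-6, Cd79a, Cd79b, Ms4a1, Pou2af1 or Pigr. Of these 8 genes, 7 had a probe, with 9 probes among the 45281 in the table, and no probe in the table used here carries the symbol Cd79a. A probe was tested if its signal was above background (detection p-value under 0.05) on at least 4 of the 18 arrays, which 21938 probes were. Of the 9 probes, 8 were tested, from 6 genes, and the probe for Ms4a1 was not.

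The mice were on a C57BL/6 background, aged 8 to 22 weeks, and carried either intact Mbd2 (WT) or a deletion of it in all cells (Mbd2-/-). They were littermates housed together, and each replicate held the cells of 1 to 5 mice. The DSS WT and DSS Mbd2-/- groups drank 2% dextran sulfate sodium, a salt that breaks down the colon epithelium, for 6 days, and the Naive WT and Naive Mbd2-/- groups had none. Each group had 4 samples: 1 to 4 for DSS WT, 5 to 8 for DSS Mbd2-/-, 9 to 12 for Naive WT and 13 to 16 for Naive Mbd2-/-. Samples 4 and 5 were each run on a repeat array, which was averaged with the first. Cells were sorted as EpCAM+ and CD45-, with T cells, macrophages and other lineage-positive cells gated out. Plasma cells and B cells that carry CD45 fall outside such a gate. The labels do not say which mice went into which pool, so p-values measure the spread between these pools only.

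Antibody reaches the lumen of the gut through a division of labour between cell types. Plasma cells under the epithelium make dimeric IgA, in which the J chain links the antibody units, and the polymeric immunoglobulin receptor Pigr on the basal face of the epithelial cell binds that dimer and carries it across. Mature B cells carry membrane antibody with the signalling chains Cd79a and Cd79b and the surface protein Ms4a1 (CD20), and Pou2af1 is the coactivator that joins octamer-binding factors on immunoglobulin promoters. Plasma cells keep the immunoglobulin genes at very high output and lose much of the B cell surface.

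The probe letters show what 3 of the member probes read. Both Igh-6 probes, for the heavy chain of IgM, share a run of 47 of their 50 bases, given in capitals, so they are not independent measurements. The Igk-C probe, for the constant part of the kappa light chain, shares a run of 33 bases, also in capitals, with a probe filed under the predicted gene LOC100047628.
Igh-6 ILMN_2744657: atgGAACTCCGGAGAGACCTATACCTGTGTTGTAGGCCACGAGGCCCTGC
Igh-6 ILMN_2744660: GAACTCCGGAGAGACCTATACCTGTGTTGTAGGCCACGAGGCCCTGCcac
Igk-C ILMN_2684370: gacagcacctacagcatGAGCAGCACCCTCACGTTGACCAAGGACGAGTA
LOC100047628 ILMN_2704562: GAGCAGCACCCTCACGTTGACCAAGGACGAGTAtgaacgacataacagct
No other probe of the table shared a run of 20 or more bases with a member probe on either strand.

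Arrays detected between 18851 and 20618 probes each, and the mean signal of the negative control beads was 103 to 134 on the DSS arrays against 101 to 111 on the naive arrays. The Mbd2 probe was not detected on any of the 18 arrays, WT included, so it is no check of the genotype labels. All 12 epithelial markers were tested, with Muc2, the goblet cell mucin, and Krt8, a simple-epithelium keratin, the brightest of them, and their summed signal lay between 114358 and 143826 in all 16 samples. Of 21 further B cell genes, 7 were detected on no array, among them Pax5, the B cell identity factor, Cd22 and Tnfrsf13c.

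No member probe passed the call limits, an adjusted p under 0.01 with an absolute log2 fold change of 1 or more, in any comparison. With limma and Benjamini-Hochberg adjustment over all 21938 tested probes, 0 of 8 were called for DSS WT against Naive WT (1.74% of all tested probes were), 0 of 8 for DSS Mbd2-/- against Naive Mbd2-/- (1.72%), 0 of 8 for DSS Mbd2-/- against DSS WT (0.862%) and 0 of 8 for Naive Mbd2-/- against Naive WT (0.656%). At an unadjusted p under 0.05 the counts were 4, 1, 0 and 1, where 26.3%, 24.5%, 22.2% and 22.8% of all tested probes passed. Without a fold limit, 2 member probes had an adjusted p under 0.05, both in DSS WT against Naive WT, where 10.5% of all tested probes did (5.71% higher and 4.75% lower). Pigr was lower and Pou2af1 higher with DSS. In the other comparisons, 9.42% (DSS in Mbd2-/-), 5.63% (genotype with DSS) and 5.19% (genotype without DSS) of all tested probes reached it and no member did. The median log2 fold change of the 8 probes was 0.57 for DSS in WT, 0.21 for DSS in Mbd2-/-, 0.13 for the genotype with DSS and 0.38 for the genotype without it, against -0.02 to -0.0011 over all tested probes. These comparisons share groups, so their values are not independent of each other. Several fold changes behind the medians also turned on single samples, as given below. Both Igh-6 values for DSS in Mbd2-/-, for example, turned negative without Naive Mbd2-/- sample 16.

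**Figure D1:**
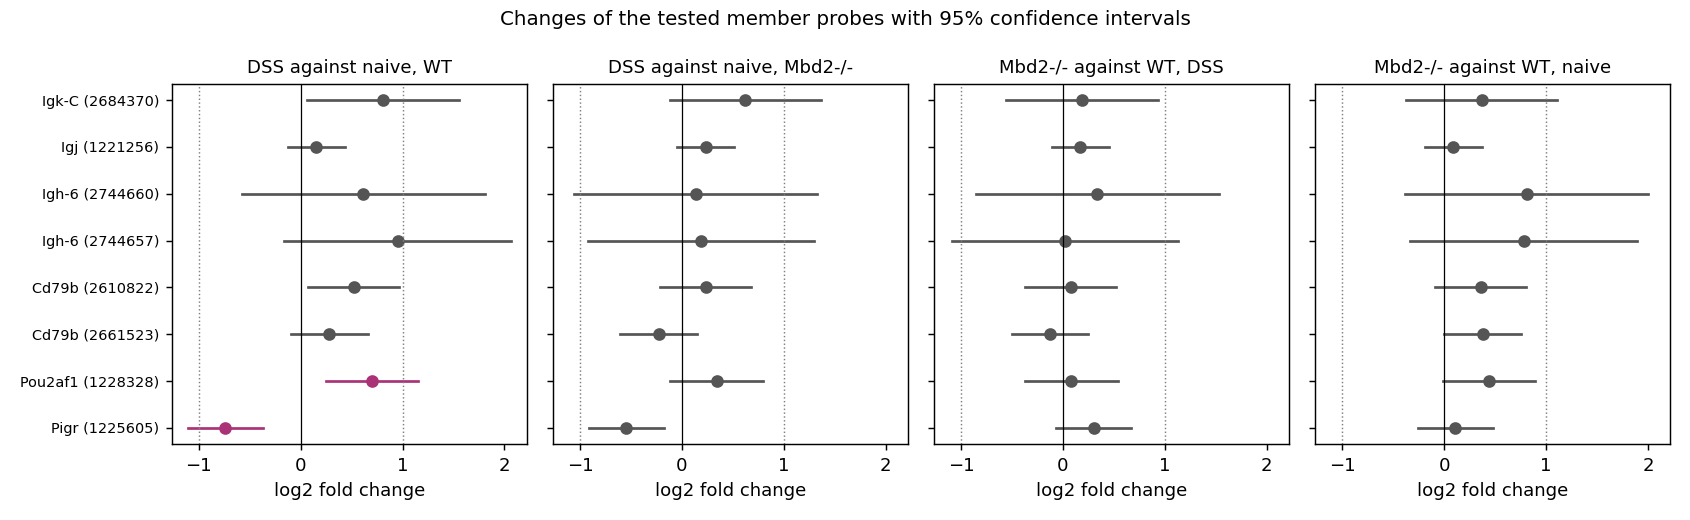
Log2 fold changes (x axis) of the 8 tested probes (y axis, with probe numbers) in the 4 comparisons, with 95% confidence intervals from the limma fit as bars and dotted lines at the fold limit. Coloured points had an adjusted p under 0.05, which held for Pou2af1 at 0.70 and Pigr at -0.74 in DSS WT against Naive WT, and no other, while the Igj points against Naive WT, where it was not detected, are fitted values with no fold.

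Igk-C, the kappa constant region made by most antibody-secreting cells of the mouse, was detected on all 18 arrays of these CD45- sorted cells, with a signal of 4228 to 28176 before normalization. Its normalized log2 signal was 13.75, 13.59, 13.69 and 12.47 in Naive WT samples 9 to 12, and 14.32, 14.15, 14.01 and 12.51 in Naive Mbd2-/- samples 13 to 16. It was 13.98, 14.22, 14.71 and 13.82 in DSS WT samples 1 to 4, and 14.55, 14.05, 14.68 and 14.21 in DSS Mbd2-/- samples 5 to 8. In each naive group 1 sample, 12 and 16, lay well below the other 3, and the DSS WT values all lay above the Naive WT values, by a gap of only 13.82 against 13.75.

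The Igk-C log2 fold change was 0.81 ± 0.35 (SE) for DSS in WT mice, with an adjusted p of 0.152 by limma, and 0.63 ± 0.35 for DSS in Mbd2-/- mice, with an adjusted p of 0.288. The 95% intervals ran from 0.07 to 1.55 and from -0.12 to 1.37. Without Naive WT sample 12 the WT value was 0.51 (adjusted p 0.391), and without samples 12 and 16 together, an alternative chosen after seeing the data, the Mbd2-/- value was 0.21. Scaling each array to a common median in place of quantile normalization gave 1.03 in WT, with an adjusted p of 0.0485. That scaling placed the median of all tested probes 0.24 higher in DSS WT than in Naive WT, so relative to it Igk-C stood at 0.79. Which cells gave the Igk-C signal in these sorted bulk samples was not tested, and a difference in their number cannot be told apart from one in RNA per cell.

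Between genotypes, Igk-C differed by 0.19 ± 0.35 with DSS (adjusted p 0.811 by limma) and by 0.37 ± 0.35 without it (adjusted p 0.562). The 95% intervals were -0.55 to 0.93 and -0.37 to 1.11, and the second of them includes the fold limit. The value with DSS was 0.067 without DSS WT sample 4 and 0.36 without DSS WT sample 3. The naive value turned on the low samples, and was 0.07 without Naive WT sample 12 and 0.78 without Naive Mbd2-/- sample 16.

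Igh-6, the IgM heavy chain, was also detected on all 18 arrays. The probe with the higher mean signal, ILMN_2744657, gave log2 signals of 5.65, 6.27, 6.87 and 6.65 in Naive WT and 7.77, 7.23, 8.25 and 5.32 in Naive Mbd2-/-. With DSS it gave 6.99, 7.53, 7.54 and 7.18 in WT and 7.38, 6.71, 8.74 and 6.51 in Mbd2-/-. DSS WT samples again all lay above Naive WT, while both Mbd2-/- groups spread widely, with a SD of 1.28 without DSS and 1.01 with it, against 0.53 and 0.27 in WT.

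No Igh-6 difference passed a threshold. For DSS against naive in WT the log2 fold changes of the probes were 0.95 ± 0.53 (SE) and 0.61 ± 0.56, with adjusted p-values of 0.264 and 0.526 by limma. In Naive Mbd2-/- against Naive WT they were 0.78 ± 0.53 and 0.81 ± 0.56, with adjusted p-values of 0.397 and 0.414. That genotype difference turned on single samples. It was 0.41 and 0.47 without Naive Mbd2-/- sample 15, 1.39 and 1.41 without sample 16, and 1.49 and 1.65 (adjusted p 0.0781 and 0.0746) without samples 12 and 16. Without Naive WT sample 9 the second probe gave 0.43 there and 0.23 for DSS in WT. For DSS in Mbd2-/- mice the values were 0.19 and 0.14, and both turned negative without Naive Mbd2-/- sample 16, to -0.42 and -0.47, or without DSS Mbd2-/- sample 7, to -0.28 and -0.34.

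Igj, the J chain, was near background. The probe had a signal of 104 to 151 before normalization and was detected on 2 of 5 DSS WT arrays, 4 of 5 DSS Mbd2-/- arrays, 0 of 4 Naive WT arrays and 1 of 4 Naive Mbd2-/- arrays. Its log2 signal was 4.81, 4.69, 4.76 and 4.56 in Naive WT, 5.08, 4.58, 4.97 and 4.56 in Naive Mbd2-/-, 5.08, 4.78, 4.85 and 4.73 in DSS WT and 5.17, 4.83, 5.12 and 5.00 in DSS Mbd2-/-, and the groups of each comparison overlapped. Against Naive WT no fold is given, since the probe was not above background there and no bound on the fold could be set. For DSS Mbd2-/- against Naive Mbd2-/- the fitted log2 difference was 0.23 ± 0.13 (SE), with an adjusted p of 0.295 by limma. It ran from 0.15 to 0.33 with 1 sample left out. With detection on only 1 of 4 Naive Mbd2-/- arrays, no size is read from it.

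**Figure D2:**
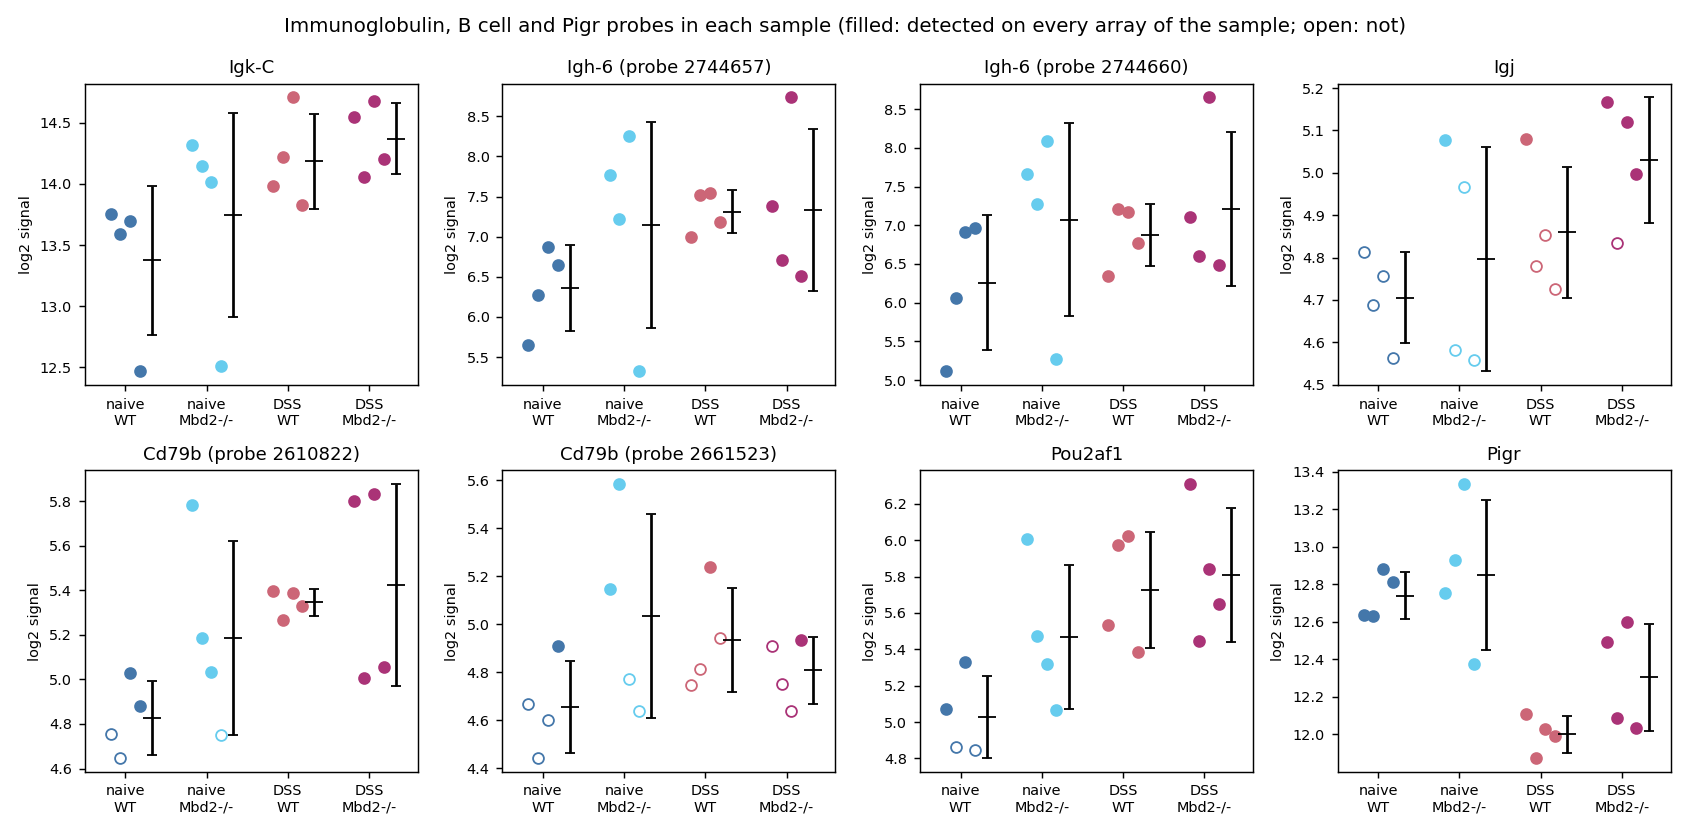
Normalized log2 signal (y axis, its own range in each panel) of the 8 tested probes in the 4 samples of each group (x axis), with the group mean and SD beside the points. Filled points were detected on every array of the sample. The low Igk-C values of samples 12 and 16, at 12.47 and 12.51, the near-background Igj and Cd79b signals, and the Pigr values of DSS WT below those of Naive WT can be read from it.

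Of the B cell surface genes, Ms4a1, the CD20 surface protein, was detected on 0 of 18 arrays, with a lowest detection p-value of 0.0716. For Cd79b, the B cell receptor signalling chain, probe ILMN_2610822 was detected on 15 arrays and probe ILMN_2661523 on 7. The first gave 4.75, 4.65, 5.03 and 4.88 in Naive WT, 5.78, 5.19, 5.03 and 4.75 in Naive Mbd2-/-, 5.40, 5.27, 5.39 and 5.33 in DSS WT and 5.80, 5.01, 5.83 and 5.06 in DSS Mbd2-/-. DSS WT lay above Naive WT in every sample, and the Mbd2-/- groups overlapped.

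The change of that Cd79b probe for DSS in WT was 0.52 ± 0.21 (SE), with an adjusted p of 0.125 by limma. The second probe was near background. It was detected on 1 of 4 Naive WT, 2 of 5 DSS WT, 2 of 4 Naive Mbd2-/- and 2 of 5 DSS Mbd2-/- arrays. No size or direction is read from it. Its fitted value for DSS in WT was 0.28 ± 0.18, and for DSS in Mbd2-/- mice the 2 probes gave 0.24 and -0.23. Leaving out each sample in turn, these last 2 values ran from 0.090 without Naive Mbd2-/- sample 16 to 0.43 without sample 13, and from -0.36 without sample 16 to -0.043 without sample 14. The 0.28 was 0.18 without DSS WT sample 3. They correlated at r = 0.36 over the 16 samples, against 0.96 for the overlapping Igh-6 probes.

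Pou2af1, the octamer coactivator of B lineage cells, was detected on 16 of 18 arrays. Its log2 signal was 5.07, 4.86, 5.33 and 4.85 in Naive WT, 6.01, 5.47, 5.32 and 5.07 in Naive Mbd2-/-, 5.53, 5.97, 6.03 and 5.38 in DSS WT and 6.31, 5.44, 5.84 and 5.65 in DSS Mbd2-/-. All DSS WT values exceeded all Naive WT values, 2 of which came from arrays on which the probe was not detected.

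Pou2af1 was higher in DSS WT than in Naive WT by 0.70 ± 0.22 (SE), with an adjusted p of 0.0473 by limma. This was close to the limit. The adjusted p stayed under 0.05 in 13 of 25 other fits, and was lost, for example, without background correction, where the value was 0.22 (adjusted p 0.0972), with no filter on detection (adjusted p 0.0907), and without DSS WT sample 2 or 3, Naive WT sample 9, 10 or 12, or samples 12 and 16 together, where the values were 0.60 to 0.72 (adjusted p 0.0758 to 0.122). Leaving out DSS Mbd2-/- sample 7 or 8 or Naive Mbd2-/- sample 14, which enter through the shared variance, put the adjusted p at 0.0559 to 0.0582. In Mbd2-/- mice the difference with DSS was 0.34 ± 0.22 (adjusted p 0.347), and the interaction of genotype and DSS was -0.36 ± 0.30 (adjusted p 0.725). Without DSS Mbd2-/- sample 5 these values were 0.18 and -0.52, and without Naive Mbd2-/- sample 13 they were 0.52 and -0.18.

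Pigr, the epithelial receptor that carries the antibody, was read by probe ILMN_1225605, which the file places on the plus strand of chromosome 1 without naming a genome build. It was detected on all 18 arrays, with a signal of 4463 to 7847 before normalization. Its log2 signal was 12.64, 12.63, 12.88 and 12.81 in Naive WT and 12.11, 11.87, 12.03 and 11.99 in DSS WT. Every DSS WT value lay below every Naive WT value. In Mbd2-/- mice it was 12.76, 12.93, 13.33 and 12.37 without DSS and 12.49, 12.09, 12.60 and 12.03 with DSS, where the groups overlapped through Naive Mbd2-/- sample 16.

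Pigr was lower in DSS WT than in Naive WT by a log2 fold change of -0.74 ± 0.17 (SE), a fold of 0.599, with an adjusted p of 0.0133 by limma. In Mbd2-/- mice the difference with DSS was -0.55 ± 0.17 (adjusted p 0.0579), and the interaction of 0.19 ± 0.25 (adjusted p 0.824) did not pass. The interaction was 0.036 without Naive Mbd2-/- sample 16 and 0.36 without sample 15. The size of this difference varied with the normalization. Before normalization the DSS WT arrays gave 4463 to 5785 and the Naive WT arrays 5474 to 6619, which overlap, and scaling to a common median gave -0.37 (adjusted p 0.106), or -0.61 relative to the median of all tested probes. The WT adjusted p was under 0.05 in 24 of 25 other fits, and the Mbd2-/- adjusted p was under 0.05 in 6 of 25, among them those without DSS Mbd2-/- sample 7 (-0.64, adjusted p 0.0381) or Naive Mbd2-/- sample 16 (-0.70, adjusted p 0.0193). Without samples 12 and 16 the WT value was -0.72 (adjusted p 0.0204) and the Mbd2-/- value -0.70 (adjusted p 0.0214). Between genotypes Pigr differed by 0.30 ± 0.17 with DSS (adjusted p 0.326) and 0.11 ± 0.17 without it (adjusted p 0.754).

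Of the 8 probes, 5 had DSS WT and Naive WT values that did not overlap, namely Igk-C, Igh-6 ILMN_2744657, Cd79b ILMN_2610822 and Pou2af1 above and Pigr below, where 17.0% of all tested probes did not overlap (8.87% higher and 8.1% lower). The Cd79b and Pou2af1 probes were each detected on only 2 of 4 Naive WT arrays. No member probe was free of overlap in the other comparisons, where 15.9% (DSS in Mbd2-/-), 14.7% (genotype with DSS) and 12.3% (genotype without DSS) of all tested probes were.

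Immunoglobulin signal was next set against that of the receptor within each sample, as the log2 signal of an immunoglobulin probe minus that of the Pigr probe. Only changes of this difference between groups are read, since levels of different probes are not comparable. For Igk-C the difference was 1.12, 0.96, 0.81 and -0.34 in Naive WT, 1.56, 1.22, 0.68 and 0.13 in Naive Mbd2-/-, 1.87, 2.35, 2.68 and 1.83 in DSS WT and 2.05, 1.97, 2.08 and 2.17 in DSS Mbd2-/-. All DSS values lay above all naive values, in both genotypes.

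The Igk-C minus Pigr difference was 1.55 higher with DSS in WT and 1.17 higher in Mbd2-/-, each with an exact two-sided permutation p of 0.0286, the smallest that 4 against 4 samples can give. Adjusted over the 12 such tests, both were 0.0686. Igh-6 minus Pigr was 1.69 higher with DSS in WT (exact permutation p 0.0286, adjusted 0.0686) and 0.74 higher in Mbd2-/- (exact permutation p 0.371). That last value was 0.29 without Naive Mbd2-/- sample 16 and 0.37 without DSS Mbd2-/- sample 7. The difference for Igj is not read, since Igj was detected on only 1 of 8 naive arrays and Pigr alone differed by -0.74 and -0.55. Without samples 12 and 16 the Igk-C differences were 1.22 and 0.92, again with no overlap. Each of these differences holds the Pigr change too. With DSS the Igk-C probe itself changed by 0.81 in WT and 0.63 in Mbd2-/-, and the Igh-6 probe by 0.95 and 0.19. Without samples 12 and 16 the 0.92 in Mbd2-/- was made of 0.21 for Igk-C and -0.70 for Pigr. Between genotypes no Igk-C or Igh-6 difference passed, with exact permutation p-values of 0.229 to 0.657.

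**Figure D3:**
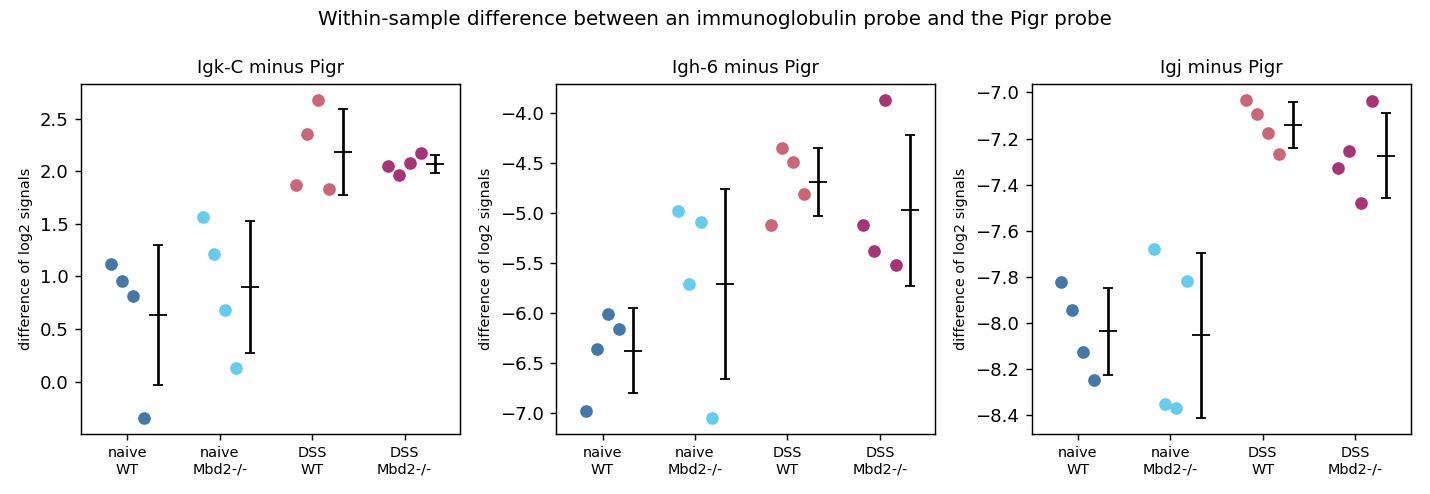
Within-sample difference between the log2 signal of an immunoglobulin probe and that of the Pigr probe (y axis) in the 4 samples of each group (x axis), with the group mean and SD. For Igk-C the DSS samples lie between 1.83 and 2.68 and the naive samples between -0.34 and 1.56, while the Igj panel rests on a probe detected on 1 of 8 naive arrays.

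Over the 16 samples Igk-C correlated with Pou2af1 at r = 0.81, with Igj at 0.71, with the Cd79b probe ILMN_2610822 at 0.70 and with Igh-6 ILMN_2744657 at 0.68. These are descriptions, since the probes of a pair were read on the same array and the samples fall into 4 groups. After removal of group means the values were 0.69, 0.58, 0.53 and 0.60. Pigr correlated with Igk-C at -0.20 over all samples and at 0.48 within groups, and with Igh-6 ILMN_2744657 at 0.17 and 0.84, so that the samples of a group with more Igh-6 signal tended to have more Pigr signal while the group means of Igk-C and Pigr went opposite ways with DSS.

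The 3 genes closest to Igk-C in pattern, by Pearson r over 16 samples with 1 probe a gene, were filed as antibody or antibody-like chains. LOC100047628, a predicted gene whose probe shares 33 bases with that of Igk-C, reached r = 0.99, Igh-VJ558, filed as a heavy chain variable family, 0.96 and LOC100046793, a predicted light chain, 0.91. Within groups they were 0.98, 0.95 and 0.90. Which transcripts the bright Igh-VJ558 probe reads was not settled here. The longest run that either of the last 2 shared with the Igk-C probe was 5 bases. The closest to Pigr were Ccbl2 (0.92), A130075K23Rik (0.89) and the unnamed transcript scl0004175.1_57 (0.89).

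A further 21 probes of 15 immunoglobulin symbols were on the array, of which 14 probes of 9 symbols were tested. They correlated with Igk-C at 0.30 to 0.96, with a median of 0.75, where the median over all other tested probes was -0.04. With 1 probe a gene, 7 of the 9 were higher in DSS WT than in Naive WT, with a median log2 fold change of 0.77, and 8 of 9 with DSS in Mbd2-/-, with 0.75. For the genotype without DSS, 9 of 9 were higher in Mbd2-/-, with a median of 0.74, and with DSS 6 of 9, with 0.14. The medians turned on single samples, as leaving each out showed, a check added after seeing the data. With DSS in Mbd2-/-, 6 of 9 were higher with a median of 0.070 without Naive Mbd2-/- sample 16, and 8 of 9 with 0.41 without DSS Mbd2-/- sample 7. For the genotype without DSS the median was 1.13 without sample 16, 0.54 with 8 of 9 higher without Naive WT sample 12, 0.59 with 7 of 9 higher without Naive Mbd2-/- sample 13, and lowest, at 0.49, without sample 15. With DSS the genotype median was -0.083, with 3 of 9 higher, without DSS WT sample 1. For DSS in WT it ran from 0.61 to 1.05, with 7 or 8 of 9 higher. These genes are mostly variable-region families and IgG heavy chains. They were read on the same arrays, so the counts are not of independent genes. Over all tested probes the median log2 fold change was -0.02 to -0.0011 in these comparisons.

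Called among the 9 were Igk-V38, a kappa variable family, with DSS in both genotypes, and Igh-4, the IgG1 heavy chain, between genotypes with DSS. That was 1 of 9 in each of these comparisons. Of all tested probes 1.74% (DSS in WT), 1.72% (DSS in Mbd2-/-) and 0.862% (genotype with DSS) were called. Igk-V38 gave 4.85, 4.42, 4.81 and 4.56 in Naive WT, detected on 0 of 4 arrays, and 7.16, 7.99, 9.21 and 7.18 in DSS WT. It was at least 7.93-fold higher in DSS WT, with an adjusted p of 0.000488 by limma, and 4.41-fold higher with DSS in Mbd2-/- mice (adjusted p 0.0071). Its second probe, detected on 1 of 4 Naive WT and 2 of 4 Naive Mbd2-/- arrays, was called in WT (adjusted p 0.00656). In Mbd2-/- the second probe was not called (adjusted p 0.0106). Igh-4 gave 5.08, 4.43, 6.18 and 4.72 in DSS WT and 7.88, 6.41, 8.28 and 8.22 in DSS Mbd2-/-. It was higher in DSS Mbd2-/- by 2.60 ± 0.50 (SE, adjusted p 0.00718), with no overlap, and was detected on 2 of 5 DSS WT arrays. Without DSS, Igh-4 gave 6.62, 4.56, 5.49 and 5.67 in WT and 6.82, 6.74, 6.75 and 5.17 in Mbd2-/-. DSS WT against Naive WT gave -0.49 (adjusted p 0.575), and the Igh-4 interaction was 1.82 ± 0.71 (adjusted p 0.364). The brightest of the set, Igh-VJ558 and Igl-V1, a lambda variable gene, stood 1.06 ± 0.37 (adjusted p 0.0778) and 2.78 ± 0.75 (adjusted p 0.0277) higher in DSS WT than in Naive WT. Their Naive WT values were 13.69, 13.53, 13.87 and 12.28 for Igh-VJ558 and 10.34, 10.11, 11.63 and 7.61 for Igl-V1. Both differences thus include the low sample 12.

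**Figure D4:**
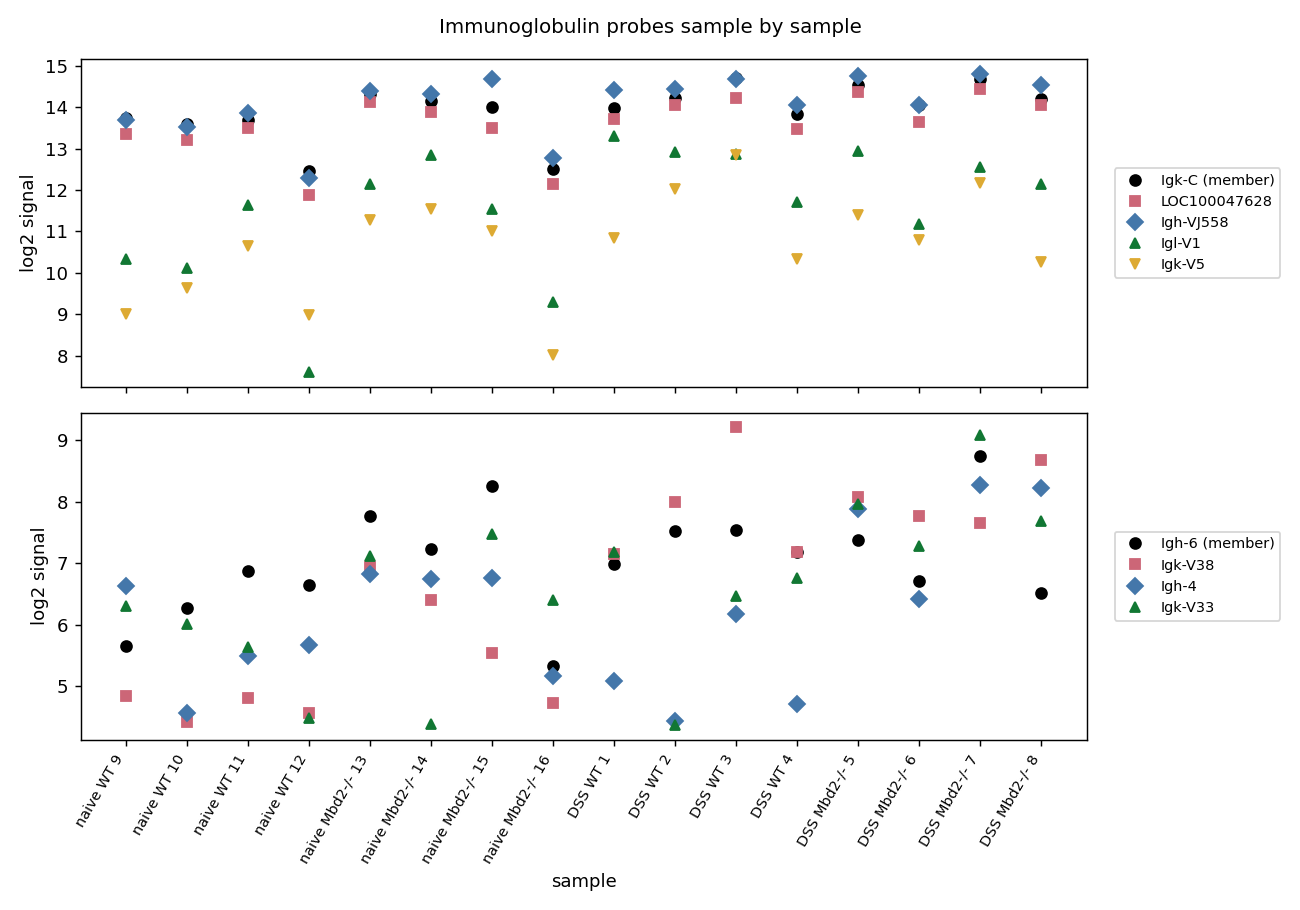
Normalized log2 signal (y axis) of Igk-C, Igh-6, the predicted gene LOC100047628 and 6 other immunoglobulin probes in each of the 16 samples (x axis), to be compared across samples for each probe and not between probes. Samples 12 and 16 hold the lowest Igk-C values, 12.47 and 12.51, and Igk-V38 lies at 7.16 or above in all DSS WT samples.

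Of 15 plasma cell genes outside the immunoglobulins 12 were tested and 0 were called in any comparison, where 0.656% to 1.74% of all tested probes were called for DSS or genotype, with Xbp1 and Txndc5, which serve the secretory pathway in epithelium too, the brightest. Xbp1 was -0.09 and Txndc5 -0.07 for DSS in WT, both short of the threshold. Without a fold limit 2 of the 12 passed for DSS in WT, where 10.5% of all tested probes did, and 1 for each genotype comparison (5.63% with DSS and 5.19% without). Creld2 had an adjusted p under 0.05 for the genotype without DSS (0.89), the genotype with DSS (0.58) and DSS in WT (0.44), all higher. Its second probe gave 0.72 (adjusted p 0.0116), 0.66 (adjusted p 0.016) and 0.32 (adjusted p 0.17) there, so the last did not pass. Tnfrsf13b, detected on no Naive WT array, was at least 1.19-fold higher with DSS in WT (adjusted p 0.0488). Of the 15 only Prdm1, the plasma cell master factor, was detected on no array, and Tnfrsf17, the plasma cell receptor BCMA, was detected on 2. The median log2 fold change of the 12 tested was 0.08 for DSS in WT and 0.09 in Mbd2-/-. It was 0.28 for the genotype with DSS and 0.31 without it, against -0.02 to -0.0011 over all tested probes. Of the 21 B cell genes 11 were tested, and only Cd40, a receptor that myeloid and activated epithelial cells also use, was called: it was higher with DSS by 1.48 ± 0.20 in WT (adjusted p 0.000477) and 1.35 ± 0.20 in Mbd2-/- (adjusted p 0.000884), where 1.74% and 1.72% of all tested probes were called. That Cd40 probe was detected on 2 of 4 Naive WT arrays. Probe ILMN_2502136, detected on 0 of 4 Naive WT arrays, was called in WT, at least 1.52-fold higher (adjusted p 0.00763). In Mbd2-/- it gave 0.90 (adjusted p 0.0142) and was not called. Probe ILMN_2503129, detected on 1 of 4 Naive WT and 0 of 4 Naive Mbd2-/- arrays, did not pass in WT or Mbd2-/- (adjusted p 0.482 and 0.34). Without a fold limit 3 of the 11 passed in WT and 2 in Mbd2-/-, against 10.5% and 9.42% of all tested probes. Cd72, a B cell inhibitory receptor detected on 2 of 4 Naive WT and 3 of 4 Naive Mbd2-/- arrays, was higher with DSS by 0.67 ± 0.20 in WT (adjusted p 0.0441) and by 0.67 ± 0.20 in Mbd2-/- (adjusted p 0.046). Cd37, a tetraspanin of leukocytes, had an adjusted p of 0.0257 in WT, with the probe detected on 2 of 5 DSS WT and 0 of 4 Naive WT arrays, so that no fold is given. Blnk, the brightest of that list, was -0.03 and -0.12.

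Of 16 genes that recruit and feed IgA cells 10 were tested. With DSS in WT 2 were called higher, where 1.74% of all tested probes were called, Il6 by 1.23 ± 0.22 and Itgb7, an integrin of gut-homing lymphocytes, by 1.18 ± 0.21, with adjusted p-values of 0.00238 and 0.00216 by limma. In Mbd2-/- mice, where 1.72% were called, Il6 (1.55 ± 0.22) and Cxcl13, a B cell chemoattractant (2.07 ± 0.42), were called, with adjusted p-values of 0.000643 and 0.00646. Tnfsf13b (BAFF), a survival factor for B lineage cells, was 0.88 and 0.66 with DSS and Ccl25, a gut chemokine, 0.32 and 0.92, and neither was called. Without a fold limit 5 of the 10 had an adjusted p under 0.05 in WT, where 10.5% of all tested probes did, and 4 in Mbd2-/-, where 9.42% did. These added Tnfsf13b, Tgfb1 (0.82) and Il10 in WT, and Itgb7 (0.77) and Il10 in Mbd2-/-. Il10 was detected on 1 of 4 Naive WT and 2 of 4 Naive Mbd2-/- arrays, so no size is read from it, and Itgb7 was detected on 2 of 4 and 3 of 4. Tnfsf13b was also higher for the genotype without DSS (0.91, adjusted p 0.0222), where its second probe gave 0.63 (adjusted p 0.0735). The median of the 10 was 0.82 in WT and 0.70 in Mbd2-/-, against -0.01 and -0.02 over all tested probes.

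Of 13 genes known to act on Pigr transcription 12 were tested. By the brightest probe of each gene 0 were called, though a second probe of Irf1, an interferon-induced activator, was called higher for DSS in WT (1.09 ± 0.16, adjusted p 0.000741) and for the genotype without DSS (1.12 ± 0.16, adjusted p 0.00121). The brightest Irf1 probe gave 0.88 and 0.83 in these comparisons (adjusted p 0.00674 and 0.0174). The other 3 Irf1 probes gave 0.15 to 0.68 for DSS in WT, with adjusted p-values of 0.243 to 0.873, and 1.12 to 1.29 for the genotype without DSS, with adjusted p-values of 0.0476 to 0.146. Rela, an NF-kappaB subunit, was 0.14 and -0.40. Without a fold limit the brightest probe passed for 3 of 12 genes with DSS in WT, where 10.5% of all tested probes did, for 1 of 12 between genotypes with DSS (5.63%) and for 1 of 12 without it (5.19%), so that the genotype counts lie near the share over all probes. Usf1, which binds the E-box of the Pigr promoter, was higher in DSS Mbd2-/- than in DSS WT by 0.50 ± 0.13 (adjusted p 0.0386), and its second probe gave 0.60 (adjusted p 0.2). Tlr4 and its adaptor Myd88 were higher with DSS in WT, by 0.74 ± 0.15 (adjusted p 0.00569) and 0.41 ± 0.13 (adjusted p 0.0492), where their second probes gave 0.44 (adjusted p 0.0609) and 0.0073 (adjusted p 0.983). Pigr itself stood at -0.74 for DSS in WT, 0.11 for the genotype without DSS and 0.30 for the genotype with it.

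The promoter window of Pigr is shown for the E-box in it, the CACGTG letters that Usf1 and Usf2 bind, given in capitals. It is the 250 bases before the start of the gene, chr1:130826434-130826683, plus strand of GRCm38.p6, from RefSeq.
Pigr: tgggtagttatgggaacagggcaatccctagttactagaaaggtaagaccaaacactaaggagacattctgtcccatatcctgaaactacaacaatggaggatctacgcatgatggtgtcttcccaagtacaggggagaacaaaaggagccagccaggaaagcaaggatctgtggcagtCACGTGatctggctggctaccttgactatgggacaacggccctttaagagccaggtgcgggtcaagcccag
The E-box begins at position -71 from the start, and 7.15% of the 32851 promoter windows of 300 bases held those letters. The IRF-type letters AANNGAAA, searched on both strands, occurred in the Pigr window only past the start and in the Igj window at position -86, where 23.9% of all windows held them. The octamer ATTTGCAT was in none of the 4 member windows (Igj, Cd79a, Pou2af1, Pigr) and in 1.74% of all windows. The table used here gave a window for those 4 members.

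Markers of other cells moved with DSS beside these results. With DSS, 1.74% of all tested probes were called in WT and 1.72% in Mbd2-/-. Of 8 tested pan-leukocyte and T cell markers 4 were called higher in WT, Laptm5 (1.72), Cd52 (1.78), Coro1a (1.53) and Cd53 (1.37), and 2 in Mbd2-/-. Of 9 tested myeloid markers 6 were called higher in each genotype, led in WT by Fcer1g (2.48) and Lyz2 (1.88), with Cd68, Csf1r, Fcgr3 and Tyrobp at 1.31 to 1.67. S100a8 and S100a9 were called in Mbd2-/- (adjusted p 0.00322 and 0.00597), with S100a8 detected on 1 of 4 Naive Mbd2-/- arrays and S100a9, at least 5.79-fold higher, on 0, and both had an adjusted p under 0.05 in WT too. Cd14, the brightest of the list, was 0.59 and 0.26 and not called.

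The summed signal of the 8 leukocyte markers ran from 675 to 1173 in Naive WT, 726 to 1551 in Naive Mbd2-/-, 1671 to 3286 in DSS WT and 2205 to 2534 in DSS Mbd2-/-. Its lowest value within each naive group fell on the samples with the lowest Igk-C, 675 in sample 12 and 726 in sample 16. Epithelial markers summed highest of their group in the same samples, at 141714 and 143826. The 11 tested B cell genes also summed highest of their group there, at 1341 and 1355. The 12 tested plasma cell genes, at 20413 and 23668, were at neither end of their groups. For DSS in WT, beside the lower Pigr, 3 of the 12 epithelial markers were higher, with a median of -0.13, against -0.01 over all tested probes. Cdh1, the epithelial cadherin, was lower by -0.37 (adjusted p 0.0378), and its second probe gave -0.39 (adjusted p 0.165). The sum of the 12 markers ran from 114358 to 128524 in DSS WT and from 123074 to 141714 in Naive WT. For DSS in Mbd2-/- 6 of 12 were higher, with a median of -0.06. The 10 stromal markers, led by Acta2 and Dcn, summed to 9848 to 12747 in DSS WT and 5631 to 7478 in DSS Mbd2-/-. Between these groups 0 of 10 were higher in Mbd2-/-, with a median of -0.92. Of the 10, 6 had an adjusted p under 0.05 (5.63% of all tested probes), and 1, Myh11 of smooth muscle, was called lower, by -1.36 (0.862%). For DSS in WT 10 of 10 were higher, with a median of 0.39, and 3 had an adjusted p under 0.05 (10.5%). The part of these cells in the immunoglobulin and Pigr values was not tested.

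The interaction of genotype and DSS was not called for any member, with adjusted p-values of 0.496 or more by limma. Over all 21938 probes it called 0, with 10.7% at an unadjusted p under 0.05 and 0 of the 8 member probes among them. The 95% intervals of the interaction were wide, from -1.23 to 0.87 for Igk-C and from -0.32 to 0.71 for Pigr.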

How the data were processed

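Illumina MouseWG-6 arrays were read from the deposited probe table, which per the file headers holds signal intensity with no normalization, a detection p-value from the deposited table, the bead standard error and the number of beads per probe. The submitters' processing notes name lumi and limma, and the settings are not given in the sources used here. Here limma 3.58.1 (R 4.3.3) corrected background with the 936 negative control probes, normalized by quantiles and took log2 with an offset of 16 (neqc). Arrays 4 and 4R, and 5 and 5R, were averaged, leaving 16 samples. Their log2 signals differed with an SD of 0.19 and 0.24, against 0.29 to 0.48 for other pairs within the DSS groups. Group means were fitted over all 4 groups with empirical Bayes and Benjamini-Hochberg adjustment over 21938 probes. The limma fit was tested on simulated data. Exact permutation tests used SciPy 1.17.1. A number of beads between 13 and 71 lay behind each member signal, and the number of arrays limits precision. All groups come from the labels. The file headers name no chip or slide, so none was fitted as a batch. Alternatives changed background correction, normalization, filter, repeat arrays, samples and call rule. Named genes were all member probes, from other lists each gene with a called probe and the 2 genes with the highest mean signal, and for likeness the 3 genes with the highest Pearson r. Other genes of these lists, such as Prdm1, Tnfrsf17, Creld2, Cd72, Cd37, Usf1, Tlr4 and Tgfb1, were named after their values were seen, for detection on few arrays or an adjusted p under 0.05 with no fold limit. A gene with several tested probes is given by the brightest. The members and lists were chosen with earlier results of these data known. Gene names are those of the file, with older symbols matched through the Entrez number to RefSeq.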

Additional observations from a re-analysis of the deposited data

Results flagged for a closer look

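Igk-C in Naive WT sample 12 lay far from the other samples of its group. Its log2 signal was 12.47, the nearest other sample had 13.59, and the gap was 0.876 of the range of the group, above Dixon's 95% critical value for 4 samples. Igk-C in Naive Mbd2-/- sample 16 did the same, at 12.51 against 14.01, with a gap of 0.831 of the range. Chance flags about 1 in 20 groups at that level, and 32 groups were looked at. Sample 16 also had the lowest Igh-6 signal of its group, while sample 12 did not. No interaction of genotype and DSS passed the threshold for a member.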

How the results depend on the processing

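The 40 fold changes of member probes were recomputed 1022 times, and 1000 of these kept their sign. Of the 22 with the other sign, 17 came from leaving out 1 sample. The count of called member probes was 0 in every comparison and alternative except the call rule, where an adjusted p under 0.05 with no fold limit called 2 for DSS WT against Naive WT. Scaling to a common median gave -0.076 for Igh-6 ILMN_2744657 in DSS Mbd2-/- against DSS WT and -0.041 for Pigr in Naive Mbd2-/- against Naive WT. Relative to the median of all tested probes, which that scaling put at -0.078 and -0.075, they were 0.0021 and 0.034, so neither turned. Leaving out the repeat arrays gave -0.0019 for the same Igh-6 difference. Leaving out naive samples 12 and 16, chosen after seeing the data, gave -0.47 and -0.42 for the Igh-6 probes with DSS in Mbd2-/-. With all 18 arrays separate, the differences of Igk-C minus Pigr with DSS were 1.48 and 1.17 and of Igh-6 minus Pigr in WT 1.67, all past an adjusted p of 0.05 by counting repeat arrays as samples. The cause of the other moves was not tested.

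Leaving out each sample in turn, the difference of DSS Mbd2-/- from DSS WT ran from -0.14 to 0.58 and -0.45 to 0.30 for the Igh-6 probes, -0.059 to 0.22 for Cd79b ILMN_2610822, -0.085 to 0.20 for Pou2af1 and -0.23 to 0.050 for Igk-C minus Pigr. That of Naive Mbd2-/- from Naive WT ran from -0.053 to 0.27 for Pigr and -0.065 to 0.52 for Igk-C minus Pigr. With DSS in Mbd2-/- the Igh-6 probes ran from -0.47 to 0.48 and -0.42 to 0.56. The interaction ran from -0.60 to 0.12 for Igk-C. Igj was not detected on any Naive WT array, so its fitted values are no folds and are listed only as such. Against Naive WT in Naive Mbd2-/- they ran from -0.0027 to 0.17, the interaction from -0.00011 to 0.17, and Igj minus Pigr from -0.14 to 0.088, with 0.11 under median scaling. With all 18 arrays separate, Igj minus Pigr with DSS was 0.87 and 0.77. No paired analysis was possible because each group has sample numbers of its own. Chip as a block was not run, since the headers name none. Signal near background limits Igj, Cd79b and Pou2af1.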
